A study of Mus musculus with 12 samples.

Results

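Tubulin genes encode the alpha and beta proteins that pair into dimers, the building blocks of microtubules. Microtubules form the tracks of axons and dendrites and the mitotic spindle of dividing cells. Vertebrates carry several alpha and beta genes, called isotypes, whose products co-assemble but differ mainly at their tails. In brain, Tubb3 is the classical neuronal beta-tubulin, Tuba1a is the main alpha-tubulin of developing neurons, and Tubb4a is strongly expressed in oligodendrocytes and cerebellar neurons. Mutations of TUBA1A, TUBB2B and TUBB3 cause malformations of the human brain, and mutations of TUBB4A cause a leukodystrophy with cerebellar atrophy. Tubulin mRNA is also subject to autoregulation: when free dimers accumulate, the protein TTC5 recognises the first amino acids of tubulin as they leave the ribosome, and the mRNA is degraded.

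The 10 tubulin genes described here are 4 alpha genes (Tuba1a, Tuba1b, Tuba1c and Tuba4a) and 6 beta genes (Tubb2a, Tubb2b, Tubb3, Tubb4a, Tubb5 and Tubb6), out of 57010 genes in the count table. They were picked by symbol, with no threshold on their values, and all 10 were among the 19166 genes that passed the filter on low counts. Bulk RNA-seq was made from mouse cerebellum, narrowed to crus 1 by the title of the study, in 3 groups of 4 libraries. The groups were Fmr1 knockouts injected with poly(I:C) into the peritoneum, Fmr1 knockouts given saline (called sham in their titles), and mice of the FVB background given saline. Fmr1 encodes FMRP, an RNA-binding protein lost in fragile X syndrome, and poly(I:C), a man-made double-stranded RNA, sets off responses like those to a virus. The sources used here do not give the knockout allele, the age of the mice, the dose or the time from injection to sampling, and poly(I:C) in FVB mice was not analysed here. Nothing in the labels says whether each library came from a separate animal, so p-values measure the spread between libraries, which may be technical.

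Libraries held 39352860 to 56390207 counts in poly(I:C) knockouts, 38723699 to 50248411 in saline knockouts and 35155420 to 48717119 in FVB. Levels are given as CPM, the counts of a gene per M (mega) counts of its library. Fmr1, the targeted gene, stood at 33.9 to 36 CPM in poly(I:C) knockouts, 27.9 to 36.7 CPM in saline knockouts and 85.5 to 108 CPM in FVB. Defining markers of cerebellum were high in every group. The 8 Purkinje cell markers summed to 7320 to 8180 CPM in poly(I:C) knockouts, 7680 to 9390 CPM in saline knockouts and 7770 to 8660 CPM in FVB, and the 8 granule cell markers summed to 7030 to 7470, 7110 to 7830 and 6770 to 7720 CPM in the same groups. Replicates 2 and 3 of the poly(I:C) knockouts and replicate 2 of the saline knockouts stood apart, with over 1000 CPM of Ttr, a defining transcript of choroid plexus epithelium, against at most 65.3 CPM in the other libraries. Calls of named genes that were lost without these 3 libraries carry a second value that leaves them out. In such tissue samples, fewer cells of a type and less RNA per cell cannot be told apart.

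Several members are nearly the same sequence, which bears on how far their counts can be told apart. The first 30 coding bases of 9 members, from GENCODE M21 transcripts (GRCm38), are shown to compare the site of autoregulation between isotypes, with the first 12 bases, which encode the amino acids that TTC5 reads, in capitals. Tubb6, the remaining member, is named only.
Tuba1a: ATGCGTGAGTGCatctccatccatgttggc
Tuba1b: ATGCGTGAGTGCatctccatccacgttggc
Tuba1c: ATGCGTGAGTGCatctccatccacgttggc
Tuba4a: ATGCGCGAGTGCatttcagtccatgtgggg
Tubb2a: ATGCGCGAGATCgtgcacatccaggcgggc
Tubb2b: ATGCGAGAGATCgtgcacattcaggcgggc
Tubb3: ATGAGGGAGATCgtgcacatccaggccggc
Tubb4a: ATGCGGGAAATCgtgcacctgcaagccggt
Tubb5: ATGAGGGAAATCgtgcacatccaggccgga

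Tuba1b and Tuba1c were identical over their first 389 coding bases, and Tuba1a matched both over the first 23. The 4 alpha genes used 2 different versions of the opening 12 bases, while each of the 6 beta genes had its own. Tuba1a, Tuba1b and Tuba1c lie on chromosome 15, and Tuba1a and Tuba1b differed at 23 of 1353 aligned coding bases (98.3% identity). Tubb2a and Tubb2b are neighbours on chromosome 13 and differed at 47 of 1335 (96.5% identity). Tuba4a lies on chromosome 1, Tubb3 on chromosome 8, and Tubb4a and Tubb5 on chromosome 17.

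The stretches that do separate these copies are shown next, because any difference between Tuba1a and Tuba1b, or between Tubb2b and Tubb2a, rests on reads that reach such bases or the untranslated ends. Each is the 60-base coding stretch with the most differing positions, coding bases 640 to 699 for the alpha genes and 112 to 171 for the beta pair, with the differing bases in capitals. The alpha stretch holds 10 differing positions, at all of which Tuba1b and Tuba1c carry the same base.
Tuba1a: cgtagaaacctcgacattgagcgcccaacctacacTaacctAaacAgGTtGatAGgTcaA
Tuba1b: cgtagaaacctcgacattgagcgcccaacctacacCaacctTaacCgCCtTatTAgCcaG
Tuba1c: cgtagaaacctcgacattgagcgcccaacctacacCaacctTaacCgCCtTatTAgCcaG
Tubb2a: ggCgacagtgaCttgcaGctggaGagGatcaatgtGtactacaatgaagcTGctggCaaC
Tubb2b: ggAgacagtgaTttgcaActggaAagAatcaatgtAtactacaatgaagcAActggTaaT

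Of all 100-base windows of the transcript, 65.1% for Tuba1a, 69.5% for Tuba1b and 53.4% for Tuba1c occurred exactly in a transcript of another gene, pseudogenes included. The share was 36.9% for Tubb2a and 27.7% for Tubb2b, and 0 for the other 5 members. How the authors counted reads that match several genes is not stated. The split of counts within these 2 sets of copies is therefore uncertain, and so are their levels against other genes. Annotated exons also overlapped: Gm49450 covered 26.2% of the exon length of Tuba1a and 22.7% of that of Tuba1b on the same strand, and had 0 counts in all 12 libraries. Stk16 covered 37.3% of the Tuba4a exons on the other strand, and Gm41396 covered 4.64% of those of Tuba1b. Whether counting used strand is not given, so reads of such overlapping genes cannot be told apart.

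**Figure D1:**
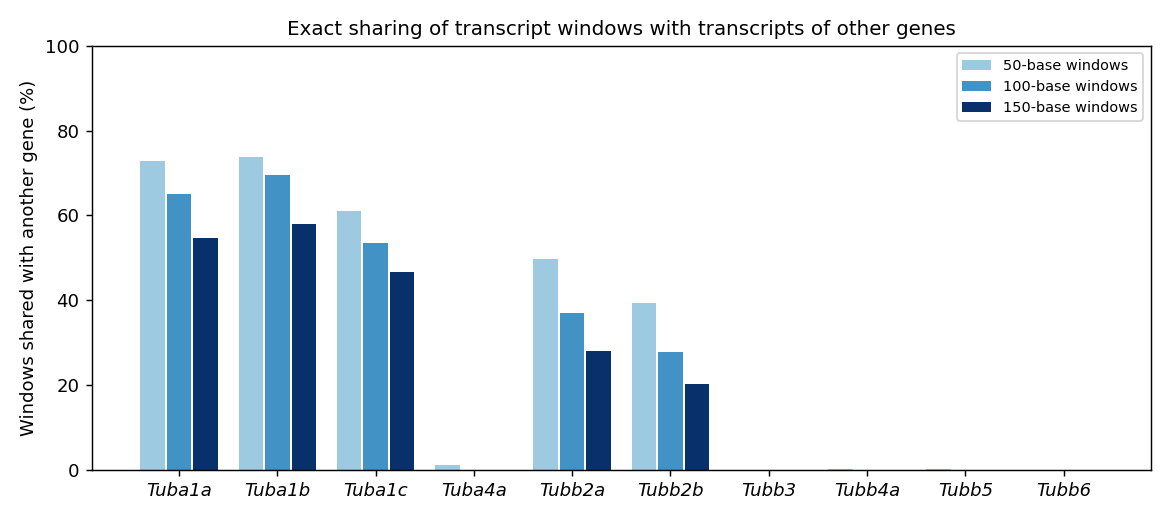
Share of transcript windows of 50, 100 and 150 bases (vertical axis, percent) that occur exactly in a transcript of another gene, for each of the 10 tubulin genes (horizontal axis). At 100 bases the 3 Tuba1 genes stand between 53.4% and 69.5% and the Tubb2 pair at 36.9% and 27.7%, while the other 5 genes are at 0.

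CPM per kb of exon adjusts for length but not for reads lost or shared among copies. The order below therefore holds for the counts as deposited. On this scale, Tubb4a was the highest member in every library. Its level averaged 590 CPM per kb over the 12 libraries (range 529 to 667). Tuba1a followed at 221 (179 to 272), and neither range overlapped that of the next gene in the order. Tuba4a, the only alpha isotype here with a chain that lacks the terminal tyrosine in its encoded form, stood at 115 (94.2 to 139).

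The next genes lay close together. Tuba1b, a widely expressed alpha-tubulin, averaged 93.6 CPM per kb (76.6 to 115), Tubb5, the beta-tubulin of most cell types, 86.8 (77.4 to 103), and Tubb2a, a major neuronal beta-tubulin, 86.6 (69.5 to 104). Tubb5 was above Tubb2a in 5 of 12 libraries, so this pair could not be ordered. Tubb3 stood at 65.1 (54.4 to 81.6) and Tubb2b, the close copy of Tubb2a, at 54.9 (42.5 to 81.1), and Tubb3 was the higher in 10 of 12 libraries. Tuba1c (20.5, range 6.86 to 30.6) and Tubb6 (2.78, range 2.04 to 3.78), a beta isotype that is scarce in brain, were lowest and overlapped with no other member. With the longest transcript as the length, levels per kb were 150 for Tuba4a, 109 for Tubb5 and 101 for Tuba1b, which placed Tubb5 above Tuba1b.

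**Figure D2:**
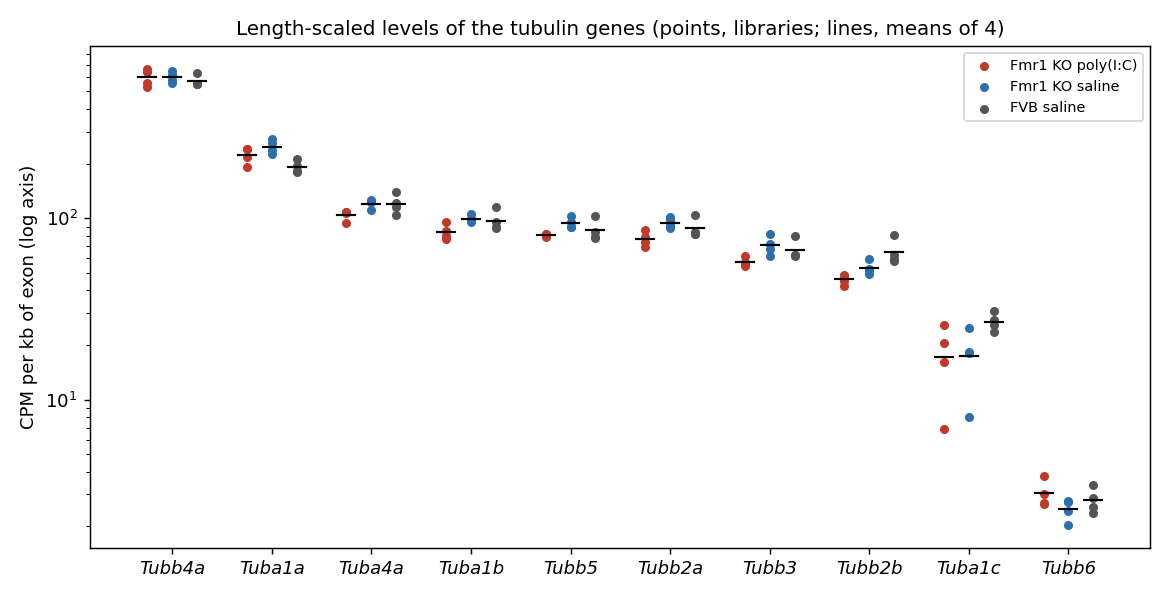
Level of each tubulin gene in CPM per kb of exon on a log axis, with 1 point per library and lines at the means of 4 libraries, for poly(I:C) knockouts, saline knockouts and FVB. Tubb4a lies between 529 and 667 and Tuba1a between 179 and 272, while Tubb6 stays between 2.04 and 3.78.

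The 4 alpha genes summed to 427 ± 22.6 CPM per kb in poly(I:C) knockouts, 486 ± 28.8 in saline knockouts and 436 ± 41.8 in FVB (SD, n = 4 each). The 6 beta genes summed to 861 ± 59.2, 918 ± 60.5 and 879 ± 80.5 CPM per kb in the same groups. Alpha genes made up 32.5% to 34.6% of the summed level in poly(I:C) knockouts, 34.3% to 34.9% in saline knockouts and 32.8% to 33.7% in FVB. These sums and shares take the counts as deposited, including those of the copies with shared sequence. They cover the 10 members only and leave out other isotypes. Among those, the beta gene Tubb4b averaged 219.3 CPM in poly(I:C) knockouts, 248 in saline knockouts and 232.6 in FVB. Within the alpha genes, Tuba1a made up 51.8% ± 3.8 in poly(I:C) knockouts, 51.1% ± 1.9 in saline knockouts and 44.1% ± 1.1 in FVB. Its share was at least 48.4% in each of the 8 knockout libraries and at most 45.3% in each FVB library, so the knockout and FVB libraries did not overlap. This share uses the same counts as the Tuba1a levels below, so it is not a separate observation.

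Tuba1a was the member called between saline knockouts and FVB, the comparison of genotype without immune stimulation. Other differences between the knockout and FVB mice cannot be told apart from loss of Fmr1 here, and were not tested. Tuba1a had 466, 407, 491 and 426 CPM in the 4 saline knockouts, against 329, 382, 323 and 351 CPM in the 4 FVB libraries. All saline knockouts lay above all FVB libraries. The mean was 447.5 ± 38.1 CPM in saline knockouts and 346.2 ± 26.9 CPM in FVB (SD, n = 4 each), a log2 fold change of 0.37 (SE 0.0813, 95% interval 0.20 to 0.541, adjusted p = 0.0248 by the quasi-likelihood test of edgeR, with Benjamini-Hochberg adjustment over all genes tested). It was the only member of 10 called at an adjusted p under 0.05 and the only 1 without overlap, where 1.53% of all genes tested were called (0.814% higher and 0.72% lower), and 3.57% were higher and 3.45% lower without overlap. The call was lost without saline knockout replicate 1 (edgeR adjusted p = 0.0673) or 3 (0.0774) and without FVB replicate 1 (0.0845), 3 (0.0987) or 4 (0.0725). It was kept without the 3 libraries high in Ttr.

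In poly(I:C) knockouts Tuba1a had 432, 344, 431 and 391.7 CPM, which overlapped both other groups. Its log2 fold change was -0.16 against saline knockouts (edgeR adjusted p = 0.349) and 0.21 against FVB (0.138). Against FVB, Tuba1a was called only when poly(I:C) knockout replicate 2 was left out (edgeR adjusted p = 0.0497).

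The ratio of Tuba1a to Tuba1b, its close copy, was 2.20 to 2.87 in poly(I:C) knockouts, 2.27 to 2.51 in saline knockouts and 1.77 to 2.11 in FVB. The knockout libraries thus all lay above the FVB libraries in this ratio, which is a ratio of CPM within each library and does not depend on scaling. It draws on the same counts as the call for Tuba1a. Tuba1b itself had 159, 144, 150.1 and 178 CPM in poly(I:C) knockouts, 186, 179, 197 and 185 CPM in saline knockouts, and 179, 215, 168 and 166 CPM in FVB. Its log2 fold change between saline knockouts and FVB was 0.04 (95% interval -0.133 to 0.207, edgeR adjusted p = 0.92). Between poly(I:C) knockouts and FVB it was -0.21 (-0.377 to -0.037, 0.14), which also raises the ratio in poly(I:C) knockouts.

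**Figure D3:**
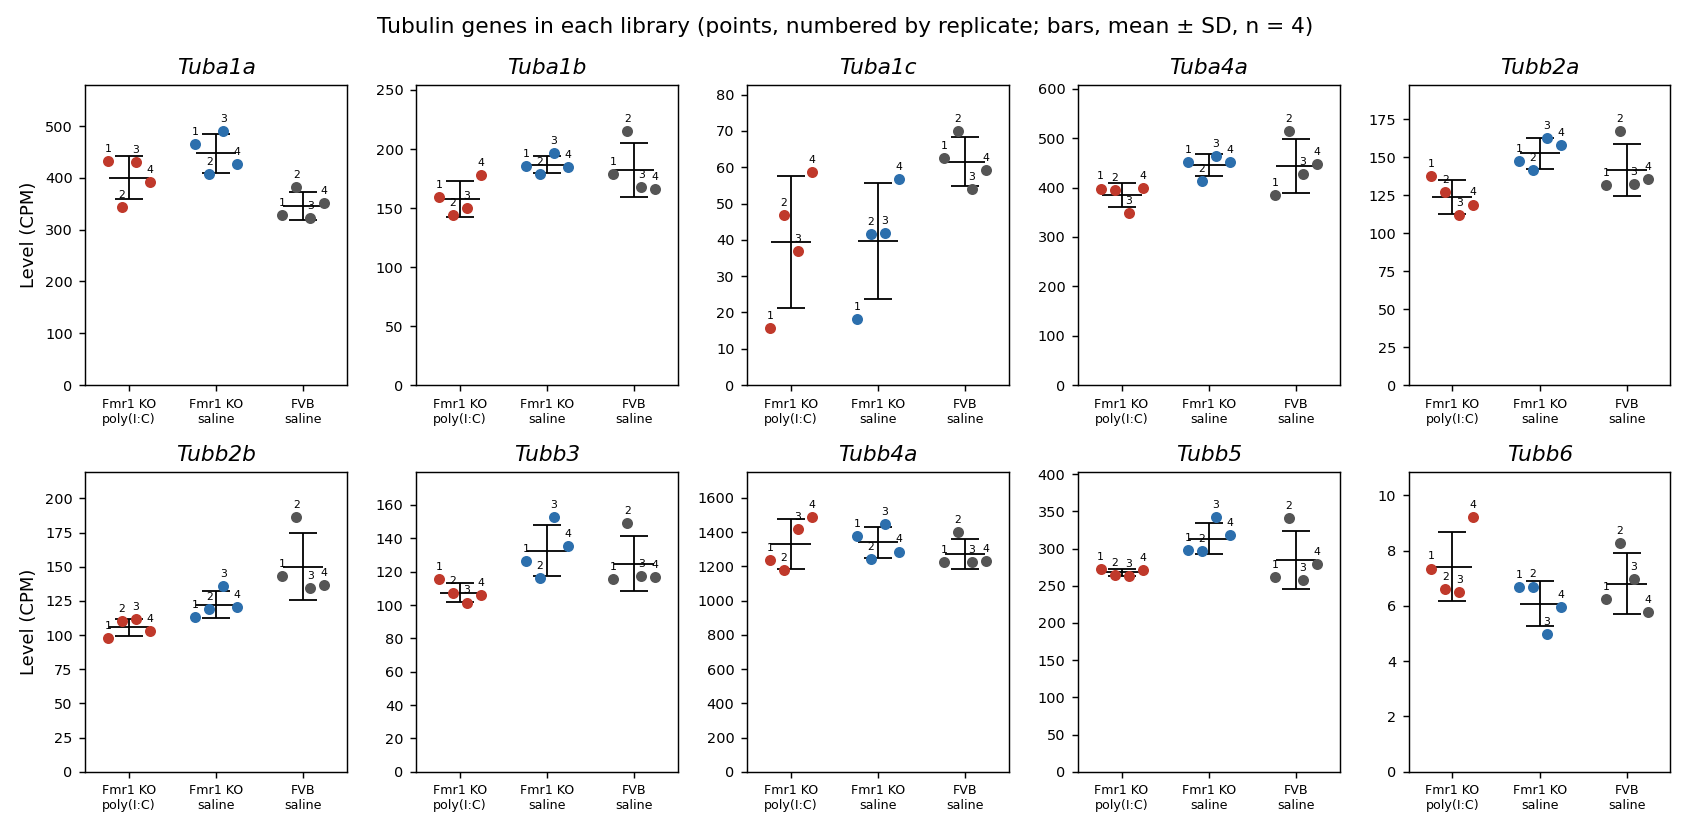
CPM of each tubulin gene in each library, with points numbered by replicate and bars at the mean ± SD of 4 libraries, for poly(I:C) knockouts, saline knockouts and FVB from left to right. For Tuba1a the 4 saline knockouts lie above the 4 FVB libraries, and for Tubb2b the 4 poly(I:C) knockouts lie below them.

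Tubb2b was the member called between poly(I:C) knockouts and FVB, a comparison in which genotype and treatment change together. Tubb2b had 97.5, 110.2, 111 and 103 CPM in poly(I:C) knockouts, against 144, 186, 134 and 136 CPM in FVB. Every poly(I:C) knockout lay below every FVB library. The mean was 105.6 ± 6.51 CPM in poly(I:C) knockouts and 150 ± 24.3 CPM in FVB (SD, n = 4 each), a log2 fold change of -0.51 (SE 0.0921, 95% interval -0.702 to -0.312, edgeR adjusted p = 0.00229). Tubb2b was 1 of 10 members called, where 7.05% of all genes tested were called and 3.24% were called lower. An unadjusted p under 0.05 was found for 6 of the 10 members and for 21.3% of all genes tested. Over all alternatives run, its adjusted p stayed between 1.74e-06 and 0.0179.

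The saline knockouts held 113, 119, 136 and 121 CPM of Tubb2b, between the other groups, and overlapped FVB only through replicate 3. Their log2 fold change against FVB was -0.30 (SE 0.092, 95% interval -0.489 to -0.101, edgeR adjusted p = 0.148), a call that was made only with no filter on low counts (adjusted p = 0.0266). The poly(I:C) knockouts lay below all saline knockouts, with a log2 fold change of -0.21 (edgeR adjusted p = 0.273). These comparisons share libraries, so the values are not independent of each other.

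The ratio of Tubb2b to Tubb2a, its neighbour and close copy, was 0.708 to 0.996 in poly(I:C) knockouts, 0.763 to 0.842 in saline knockouts and 1.01 to 1.11 in FVB. The 8 knockout libraries lay below the 4 FVB libraries. This ratio draws on the same Tubb2b counts as the call above. Tubb2a differed less from FVB, with log2 fold changes of -0.19 in poly(I:C) knockouts (95% interval -0.366 to -0.022, edgeR adjusted p = 0.175) and 0.11 in saline knockouts (-0.066 to 0.278, 0.684).

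Poly(I:C) against saline asks what immune stimulation does in the Fmr1 knockouts, whose Fmr1 RNA was lower than in FVB but not absent. No member was called by edgeR, where 2.87% of all genes tested were called, while 6 members had an unadjusted p under 0.05, as did 15.5% of all genes tested. DESeq2 called Tubb2a and Tubb3 among 973 genes in all, more than edgeR's 550. Limma-voom called no member, with 572 genes in all. With the 3 high-Ttr libraries left out, edgeR called no member and 215 genes in all. Most members had lower levels in poly(I:C) knockouts: 9 of 10 log2 fold changes were below 0, with a median of -0.21. Among all genes tested 9662 of 19166 were below 0, with a median of -0.002. Tuba1c (-0.0104) and Tubb4a (-0.0118) were among the 9 but close to 0. With 1 library left out, 7 to 9 member values were below 0. For 6 members (Tuba1b, Tuba4a, Tubb2a, Tubb2b, Tubb3 and Tubb5) every poly(I:C) knockout lay below every saline knockout, an order found in 4.82% of all genes. The reverse order, found in 4.93% of all genes, held for no member. These 6 were measured in the same libraries and varied together, so they are not separate observations. Without the 3 libraries high in Ttr the same 6 members kept this order, in a setting with 2 against 3 libraries, added after the data were seen, where 11.7% of all genes did. Tubb6 was then higher without overlap, at 7.4 and 9.2 CPM in the remaining poly(I:C) knockouts against 6.7, 5.0 and 6.0 CPM in the remaining saline knockouts, an order that 11.4% of all genes had in that setting.

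Tubb2a had 138, 127, 112 and 119 CPM in poly(I:C) knockouts, against 147, 141, 163 and 158 CPM in saline knockouts. The groups did not overlap, and the highest poly(I:C) knockout came within a few CPM of the lowest saline knockout. The log2 fold change was -0.30 (SE 0.0819, 95% interval -0.471 to -0.127, edgeR adjusted p = 0.0566). Tubb2a was called by DESeq2 (adjusted p = 0.0298), in edgeR with no filter on low counts (0.00682), in a fit of the 2 groups alone (0.0387), and without FVB replicate 2 (0.0195) or poly(I:C) knockout replicate 1 (0.0291). It stayed uncalled in 18 of 24 alternatives, and over all alternatives its adjusted p reached 0.467.

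Tubb3 had 115, 107, 101.5 and 106 CPM in poly(I:C) knockouts, against 127, 116, 152 and 135 CPM in saline knockouts. The gap between the groups was again narrow, at 115 against 116 CPM. Its log2 fold change was -0.30 (SE 0.0889, 95% interval -0.491 to -0.116, edgeR adjusted p = 0.0796), and it was called by DESeq2 (0.0463), in edgeR with no filter (0.0136), and without FVB replicate 2 (0.0277) or saline knockout replicate 2 (0.045). It stayed uncalled in 19 of 24 alternatives, and over all alternatives its adjusted p reached 0.416. Tubb3 was also without overlap below FVB, which held 116, 149, 118 and 117 CPM, with a log2 fold change of -0.21 and an edgeR adjusted p of 0.167, where 7.46% of all genes were lower without overlap.

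Tubb5 had 273, 265, 263 and 271 CPM in poly(I:C) knockouts, against 298, 296, 342 and 318 CPM in saline knockouts. The poly(I:C) values lay close together, with an SD of 4.6 CPM, and below all saline knockouts. The log2 fold change was -0.23 (SE 0.0785, edgeR adjusted p = 0.149), and the gene was called only without FVB replicate 2 (0.0445). FVB, at 261, 341, 257 and 279 CPM, overlapped both knockout groups.

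Tuba4a had 398, 395, 349 and 399 CPM in poly(I:C) knockouts, against 452, 413, 465 and 452 CPM in saline knockouts. No library of the first group reached the second, and the log2 fold change was -0.21 (SE 0.0781, edgeR adjusted p = 0.181). FVB held 385, 515, 428 and 447 CPM and overlapped both. Tuba1b, without overlap as well, had a log2 fold change of -0.24 (SE 0.0812, edgeR adjusted p = 0.128).

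Tubb4a, the highest member per kb as counted, had 1237, 1179, 1417 and 1486 CPM in poly(I:C) knockouts, 1380, 1245, 1450 and 1287 CPM in saline knockouts, and 1227, 1402, 1228 and 1232 CPM in FVB. The 3 groups overlapped. Its log2 fold change was -0.01 for poly(I:C) against saline knockouts (95% interval -0.178 to 0.154, edgeR adjusted p = 0.968) and 0.08 for saline knockouts against FVB (-0.09 to 0.242, 0.779). The direction of the treatment value turned when single libraries were left out.

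Tubb6 was the only member with a positive treatment value, at 7.4, 6.6, 6.5 and 9.2 CPM in poly(I:C) knockouts against 6.7, 6.7, 5.0 and 6.0 CPM in saline knockouts and 6.3, 8.3, 7.0 and 5.8 CPM in FVB. The groups overlapped, and the log2 fold change between poly(I:C) and saline knockouts was 0.29 (95% interval -0.034 to 0.609, edgeR adjusted p = 0.391).

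**Figure D4:**
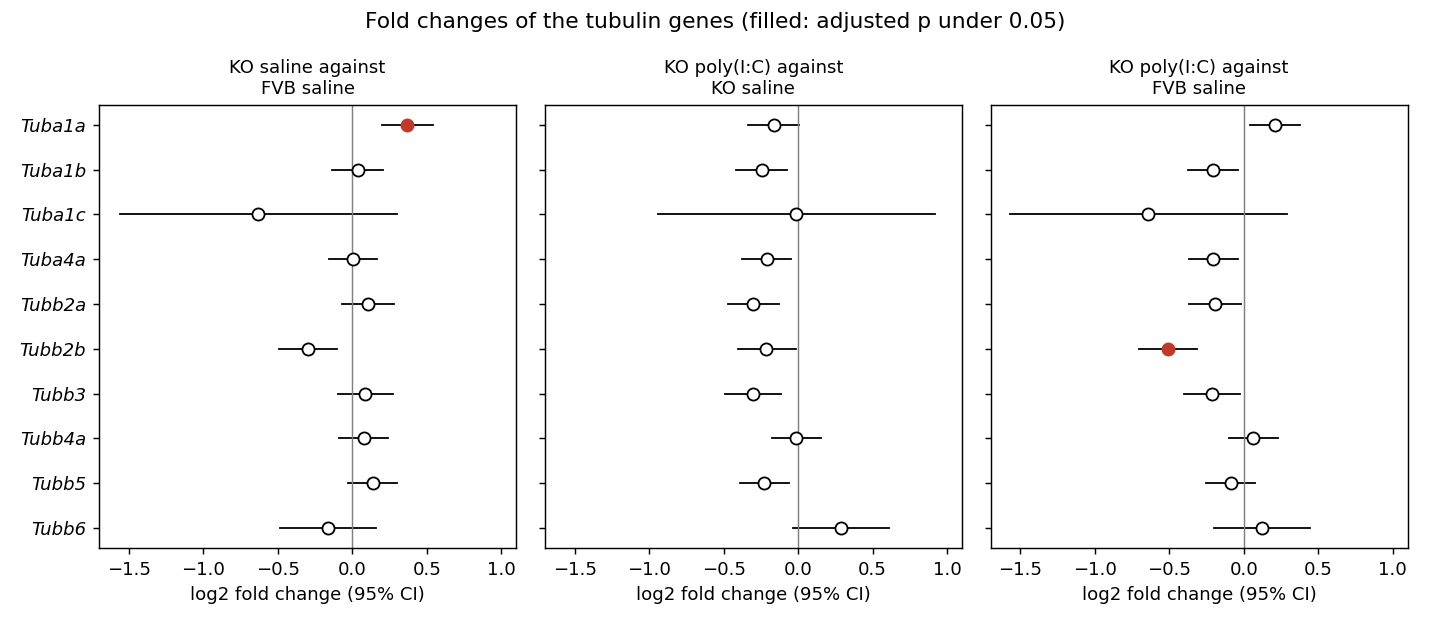
Log2 fold change of each tubulin gene (horizontal axis, with 95% intervals) for saline knockouts against FVB, poly(I:C) knockouts against saline knockouts, and poly(I:C) knockouts against FVB; filled points have an edgeR adjusted p under 0.05. The filled points are Tuba1a at 0.37 in the genotype panel and Tubb2b at -0.51 in the panel of poly(I:C) knockouts against FVB, and the middle panel has none.

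Tuba1c was the least even member. It had 15.7, 46.8, 36.9 and 58.7 CPM in poly(I:C) knockouts, 18.3, 41.5, 42 and 56.9 CPM in saline knockouts, and 62.7, 70.1, 54.1 and 59.3 CPM in FVB. Replicate 1 of each knockout group was far below its group, replicate 4 of each lay among the FVB values, and the 4 FVB libraries lay close together. The coefficient of variation was 46.1% in poly(I:C) knockouts, 40.1% in saline knockouts and 10.9% in FVB. Log2 fold changes against FVB were -0.64 in poly(I:C) knockouts (SE 0.412, 95% interval -1.569 to 0.287, edgeR adjusted p = 0.418) and -0.63 in saline knockouts (-1.56 to 0.298, 0.624), so intervals this wide hold both no difference and a large one. The ratio of Tuba1c to Tuba1b was 0.0987 and 0.0986 in replicate 1 of the poly(I:C) and saline knockouts, and 0.322 to 0.357 in FVB.

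The members also shared swings between libraries of 1 group. FVB replicate 2 was the highest FVB library for 10 of 10 members, and saline knockout replicate 3 was the highest of its group for 8 of 10, while saline knockout replicate 2 was the lowest for 7. Where 1 of these 2 high libraries was the highest of its group, it raised the group mean. The effect on the SDs was not computed. The share of all genes highest or lowest in these libraries was not computed either, so these counts cannot be called particular to tubulins. The closest pair was Tubb2a and Tubb3, whose log2 CPM, centred on the gene mean, differed by a root mean square of 0.0511 over the 12 libraries.

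**Figure D5:**
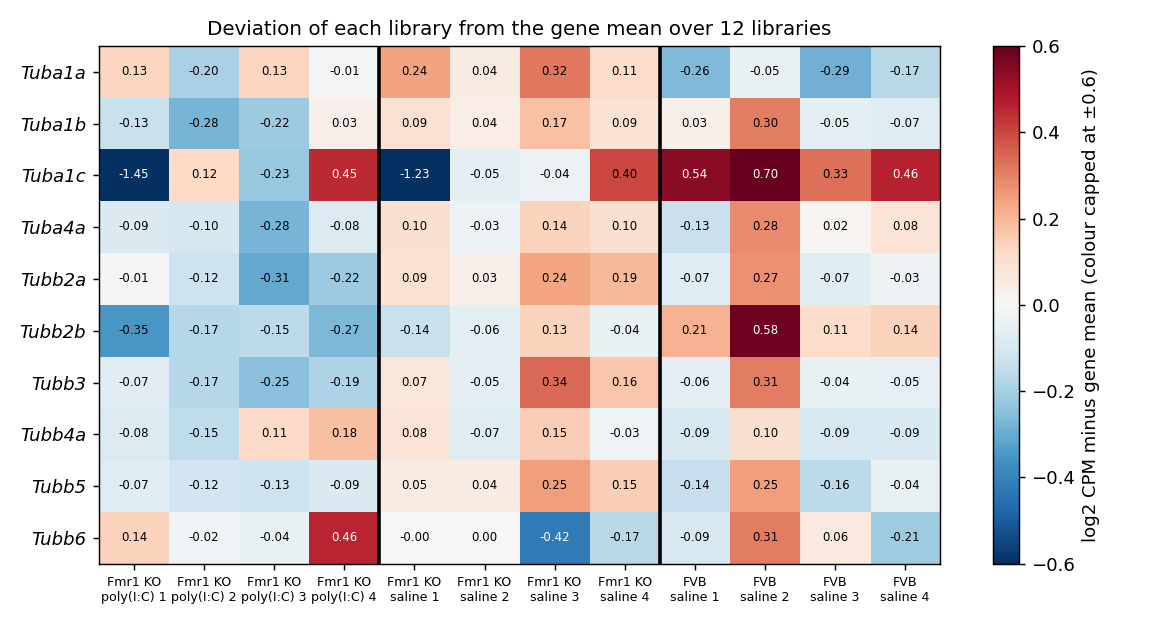
Log2 CPM of each tubulin gene (rows) in each of the 12 libraries (columns, poly(I:C) knockouts, saline knockouts, then FVB), less the mean of the gene over all libraries, with colours capped at 0.6 in either direction. Tuba1c is at -1.45 and -1.23 in replicate 1 of the poly(I:C) and saline knockouts, and FVB replicate 2 is the highest FVB library in every row.

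By the same measure, the genes most like Tubb4a in pattern were Eef2, the elongation factor that moves the ribosome along mRNA (0.0472), Pip5k1a, a lipid kinase (0.0525), the transcription factor Sp2 (0.0547) and Pef1, a calcium-binding protein (0.055), where Tubb4a itself deviated from its mean by 0.11. The search covered only genes with a symbol that were neither predicted genes (Gm or Rik names) nor low in level. None of them tracked Tuba1c closely. The nearest were Gpr3, an orphan receptor (0.461), Slc7a11, the cystine-glutamate exchanger (0.467), the adenosine receptor gene Adora2b (0.479), Sfrp4, a secreted Wnt-binding protein (0.479), and Pm20d1, a secreted enzyme (0.483), against a deviation of 0.656 for Tuba1c itself.

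Lists of genes that make, modify or use tubulin are read against all genes tested, of which 1.53% were called for genotype, 2.87% for treatment and 7.05% for poly(I:C) knockouts against FVB. The shares of all genes at an unadjusted p under 0.05 were 12%, 15.5% and 21.3% in the same order. These called shares are those of edgeR, which called 294, 550 and 1352 genes. DESeq2 called more, with 624, 973 and 1905 genes in all, and limma-voom called 225, 572 and 1230. List counts by each tool are to be read against its own totals. Of 6 tested isotypes outside the 10 members, none was called in any comparison by edgeR, with 0, 2 and 1 at an unadjusted p under 0.05 for genotype, for treatment, and for poly(I:C) knockouts against FVB. DESeq2 and limma-voom called none either. The nearest was Tubb4b, a broadly expressed beta-tubulin, at 219.3 ± 5.14 CPM in poly(I:C) knockouts and 248.0 ± 10.4 CPM in saline knockouts (SD, n = 4 each), with a log2 fold change of -0.18 (edgeR adjusted p = 0.167) and no overlap. Tubg2, a gamma-tubulin, had a log2 fold change of 0.30 between poly(I:C) knockouts and FVB (edgeR adjusted p = 0.125). Tuba3a, Tuba3b, Tubal3 and Tubb1 were below the filter, with 0 to 35 counts over all 12 libraries.

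None of the 23 folding and assembly factors, which include the tubulin cofactors, was called by edgeR in any comparison, with 3, 3 and 5 at an unadjusted p under 0.05 in the same order. DESeq2 and limma-voom called none of them. In the treatment comparison 18 of the 23 log2 fold changes were below 0, with a median of -0.047. Arl2, a small GTPase of dimer assembly, had 41.6 ± 2.65 CPM in saline knockouts and 35.8 ± 3.34 CPM in FVB (SD, n = 4 each; edgeR adjusted p = 0.206), and the cofactor Tbce had 38.6 ± 1.78 and 33.7 ± 3.33 CPM in the same groups (0.306).

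Among 3 genes of tubulin mRNA autoregulation none was called by edgeR, with 0, 1 and 1 at an unadjusted p under 0.05. DESeq2 and limma-voom called none of the 3. Ttc5, whose product reads the start of nascent tubulin, had 52.1 ± 1.58 CPM in saline knockouts and 47.8 ± 5.3 CPM in FVB (SD, n = 4 each; edgeR adjusted p = 0.584). Scaper, which links TTC5 to the deadenylase, had 39.2 ± 2.56 CPM in poly(I:C) knockouts and 45.2 ± 3.34 CPM in saline knockouts (SD, n = 4 each; edgeR adjusted p = 0.201), without overlap.

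None of the 21 tubulin-modifying enzymes was called by edgeR, with 3, 2 and 3 at an unadjusted p under 0.05. DESeq2 called 1 for treatment and 1 for poly(I:C) knockouts against FVB, and limma-voom called none. Vash2, a tubulin carboxypeptidase, had a log2 fold change of -0.60 between poly(I:C) and saline knockouts (edgeR adjusted p = 0.0879), at 1.66 and 2.51 CPM. Ttll9, a tubulin polyglutamylase, had 0.49 between poly(I:C) knockouts and FVB (0.0855), at 3.04 and 2.16 CPM.

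Of 39 microtubule-associated proteins, edgeR called 1 for genotype, none for treatment and 2 for poly(I:C) knockouts against FVB, with 6, 4 and 11 at an unadjusted p under 0.05. DESeq2 called 1, 2 and 5, and limma-voom 0, 0 and 2. These edgeR counts are near the shares called among all genes. Map1lc3a, which encodes an autophagosome protein first found as a light chain of microtubule-associated proteins, had 58.2, 55.1, 65.4 and 64.9 CPM in saline knockouts, against 42.9, 53.8, 50.1 and 46.2 CPM in FVB. The groups did not overlap, and the log2 fold change was 0.34 (edgeR adjusted p = 0.0411). The call was narrow: leaving out replicate 1, 2 or 4 of the poly(I:C) knockouts, 1, 3 or 4 of the saline knockouts, or 1, 3 or 4 of FVB ended it, with edgeR adjusted p of 0.0501 to 0.13. It was also lost under limma-voom (adjusted p = 0.0597) and in an edgeR fit of the 2 groups alone (0.0567).

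The 2 microtubule-associated proteins called between poly(I:C) knockouts and FVB were Tppp3 and Dclk2. Tppp3, a tubulin polymerization-promoting protein, had 85.2, 77.6, 105 and 93.7 CPM in poly(I:C) knockouts, against 76.9, 66, 65.6 and 61 CPM in FVB, a rise with a log2 fold change of 0.42 (edgeR adjusted p = 0.0106). Dclk2, a doublecortin-like kinase, fell to 67.6 ± 3.16 CPM in poly(I:C) knockouts, against 83.2 ± 7.35 CPM in FVB (SD, n = 4 each; log2 fold change -0.30, edgeR adjusted p = 0.00998; adjusted p = 0.0502 with the 3 high-Ttr libraries left out).

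Of 16 genes of the gamma-tubulin ring complex and augmin, which start new microtubules, edgeR called none for genotype, 1 for treatment and 1 for poly(I:C) knockouts against FVB, with 1, 2 and 4 at an unadjusted p under 0.05. DESeq2 called 1, 1 and 3, and limma-voom 0, 1 and 0. Haus7, an augmin subunit, fell to 8.71 ± 1.8 CPM in poly(I:C) knockouts, against 12.7 ± 1.36 CPM in saline knockouts (SD, n = 4 each; log2 fold change -0.55, edgeR adjusted p = 0.0295). Without the 3 libraries high in Ttr its log2 fold change was -0.26 (adjusted p = 0.714), and the call was lost without poly(I:C) knockout replicate 2 (0.0844) or 3 (0.1) or saline knockout replicate 2 (0.104) or 3 (0.0793), and in a fit of the 2 groups alone (0.0654). Tubgcp6 had 84.5 ± 7.07 CPM in poly(I:C) knockouts and 69.0 ± 7.74 CPM in FVB (SD, n = 4 each; log2 fold change 0.29, edgeR adjusted p = 0.0456), a call lost without poly(I:C) knockout replicate 2 (0.0554), 3 (0.167) or 4 (0.0814), without FVB replicate 2 (0.129), 3 (0.0556) or 4 (0.141), and when the 3 high-Ttr libraries were left out (0.303). The Tubgcp6 call was also lost under limma-voom (adjusted p = 0.059), with no robust estimation in edgeR (0.0571) and with log2 Ttr as a covariate (0.0809).

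Of 20 tested motor genes, edgeR called 0, 0 and 1 in the 3 comparisons, with 2, 1 and 2 at an unadjusted p under 0.05, and DESeq2 and limma-voom gave the same counts of calls. The gene called was Kif21b, a kinesin of neurons, between poly(I:C) knockouts and FVB. Kif21b had 32.8, 28.4, 23.2 and 25.3 CPM in poly(I:C) knockouts, against 38.2, 38.6, 39.6 and 35.9 CPM in FVB. Poly(I:C) knockouts lay below all FVB libraries, with a log2 fold change of -0.47 (edgeR adjusted p = 0.00827, or 0.124 when the 3 high-Ttr libraries were left out).

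Markers of the cells that express tubulins gave the following values beside these results, and their part in them was not tested. Between poly(I:C) and saline knockouts, where 1.06% of all genes were called lower and 1.81% higher, 1 of 8 Purkinje cell markers, 1 of 8 markers of astrocytes and Bergmann glia, 2 of 10 oligodendrocyte markers and 1 of 7 markers of meninges and fibroblasts were called lower. Of 8 microglia markers 2 were called lower and 1 higher, and the same counts held for 8 endothelial markers. No marker was called in the other lists, which include granule cells, cerebellar interneurons, oligodendrocyte precursors, mural cells and choroid plexus epithelium. The 10 oligodendrocyte markers summed to 5870 to 7850 CPM in poly(I:C) knockouts, 6310 to 6950 CPM in saline knockouts and 5860 to 6800 CPM in FVB.

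Between saline knockouts and FVB, where 0.814% of all genes were called higher and 0.72% lower, 3 of 7 tested markers of neutrophils and monocytes were called higher. Their list summed to 5.76 to 33.2 CPM in saline knockouts and 1.26 to 2.36 CPM in FVB. Of 6 proliferation markers 1 was called higher, with sums of at most 6.16 CPM in any library, and 1 of 8 markers of cerebellar interneurons was called lower. The other lists, those of Purkinje cells, granule cells and oligodendrocytes among them, had no marker called.

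Between poly(I:C) knockouts and FVB, where 3.81% of all genes were called higher and 3.24% lower, 3 of 8 markers of cerebellar interneurons were called lower, with sums of 2490 to 2930 CPM in poly(I:C) knockouts and 2940 to 3540 CPM in FVB. The lists of Purkinje cells, of astrocytes and Bergmann glia, and of meninges and fibroblasts had 1 marker each called lower. Those of ependymal cells, of neutrophils and monocytes, and of proliferating cells had 1 each called higher. Oligodendrocyte and endothelial markers were called lower for 2 and higher for 1 in each list, and microglia markers lower for 1 and higher for 1. The remaining lists, which include granule cells, oligodendrocyte precursors, mural cells and choroid plexus epithelium, had no marker called.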

How the data were processed

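The authors deposited read counts per Ensembl gene for 12 libraries. The tools named in the submitters' processing notes are Trim Galore, HISAT2 and featureCounts, with the build GRCm39, and the sources used here do not give versions, strand or multi-mapping settings. Per the labels' protocols, total RNA was made into TruSeq libraries. Symbols, lengths and sequences came from GENCODE M21 (GRCm38) by gene identifier.

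From the counts, edgeR 4.0.16 (R 4.3.3) kept genes by filterByExpr (minimum count 10, minimum total 15), scaled them by TMM and fitted a robust quasi-likelihood model on 3 group means (9 residual degrees of freedom). A gene was called at a Benjamini-Hochberg adjusted p under 0.05 over 19166 genes. CPM use TMM-scaled totals, and log2 CPM a prior count of 2. Standard errors were derived from each fold change and its F statistic. Coding sequences were aligned with Biopython 1.88. The test was tested on simulated data.

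Named genes were all 10 members, genes called in each related list (up to 4 per comparison) or else the 2 with the smallest p, and the 5 genes nearest in pattern to the member with the largest range of group means and to the highest member per kb. Of these, 1 gene is not reported here. Members and lists were chosen with earlier results of these data known. DESeq2 1.42.0, limma-voom (limma 3.58.1), other scalings, filters and designs, and left-out libraries were alternatives.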

Additional observations from a re-analysis of the deposited data

Results flagged for a closer look

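Of 30 groups of 4 libraries (10 tubulin genes in 3 groups), 4 held a library whose gap to its nearest neighbour exceeded Dixon's 95% critical share of the group's range. Chance flags about 1 in 20 groups. Replicate 2 of FVB stood above the other FVB libraries for 3 genes, at 168 CPM of Tubb2a (gap of 0.895 of the range), 149 CPM of Tubb3 (0.947) and 1400 CPM of Tubb4a (0.973). Replicate 3 of the poly(I:C) knockouts stood below its group for Tuba4a, at 349 CPM (0.908).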

How the results depend on the processing

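For the 10 members, directions and calls were the same under limma-voom, RLE and upper quartile scaling, a stricter filter, no robust estimation and log2 Ttr as a covariate, and no scaling moved the median of all genes by over 0.1 (log2). The number of genes called with saline knockouts against FVB was 294, and it was 624 by DESeq2, 506 with no filter on low counts, 494 at an adjusted p under 0.1 and 156 to 300 with 1 library left out. With poly(I:C) against saline knockouts it was 550, against 973 by DESeq2, 917 at an adjusted p under 0.1, 215 without the 3 libraries high in Ttr and 347 to 689 with 1 library left out. With poly(I:C) knockouts against FVB it was 1352, against 2123 at an adjusted p under 0.1, 556 without the 3 libraries high in Ttr and 791 to 1542 with 1 library left out. Members called numbered 2 with no filter and 0 to 1 with 1 library left out in the genotype comparison. In the treatment comparison they numbered 2 by DESeq2, 2 with no filter, 2 at an adjusted p under 0.1, 1 in a fit of the 2 groups alone and 0 to 3 with 1 library left out, and against FVB 1 to 2. The cause was not tested.

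Among the members, signs turned only when 1 library was left out. With 1 library left out the log2 fold change ranged from -0.0566 to 0.0852 for Tuba4a and -0.0048 to 0.1281 for Tuba1b by genotype, from -0.2653 to 0.2572 for Tuba1c and -0.0671 to 0.0442 for Tubb4a by treatment, and from -0.1302 to 0.012 for Tubb5 in poly(I:C) knockouts against FVB.

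Replicate numbers were not taken to pair the libraries. Same-numbered libraries had correlations of their deviations of -0.099 to 0.145, with 2 of 12 over 0.1. These 2 were replicates 1 and 2 by treatment (0.107 and 0.145). Such correlations, from 4 libraries per group, cannot exclude a pairing. With a replicate block 274, 563 and 1322 genes were called in the 3 comparisons, and 1, 0 and 1 members. Map1lc3a had an adjusted p of 0.0663 for genotype with the block.

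Tubb6, at under 10 CPM, has the least depth. The copies Tuba1a, Tuba1b and Tuba1c, and Tubb2a and Tubb2b, are limited by shared sequence rather than depth.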
